A study of Mus musculus with 2 samples.

Results

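The genes described here are 10 genes known for their part in pluripotency, the capacity of early embryonic cells to form every tissue of the body. They are Pou5f1, Nanog, Sall4, Lin28a, Lin28b, Utf1, Tdgf1, Dppa4, Esrrb and Fgf4, taken by symbol from the 16803 genes of the expression table. All 10 were listed, and all 10 had enough reads to be tested. The RNA came from NE4C, a mouse neural stem cell line cloned from embryonic brain that lacks p53. One library was made from normal culture (control) and the other after treatment with HTL, short for homocysteine thiolactone, a ring-shaped product of homocysteine that attaches to lysines of proteins. Both cultures were grown in Eagle MEM on plates coated with poly-L-lysine. For its work on homocysteine on proteins, the study kept cells in low serum before adding HTL. Whether either RNA-seq culture had this step is not stated. The sample labels do not give the dose or duration of HTL. The comparison asked how the expression level of each gene differed between the HTL-treated and the control NE4C library. Each condition had 1 library, so no difference has a replicate check, and tests and intervals cover counting error between these libraries only.

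OCT4, the product of Pou5f1, binds DNA beside SOX2 at enhancers of many pluripotency genes, and NANOG, SALL4 and ESRRB act in the same network. LIN28A and LIN28B are RNA-binding proteins that hold back the maturation of let-7 microRNAs, and let-7 in turn represses the Lin28 mRNAs. Cripto, the product of Tdgf1, is a cell-surface co-receptor for the growth factor NODAL, and FGF4 is a secreted signal that drives embryonic stem cells out of the naive state. Most of these genes are turned off as neural tissue forms, although Lin28a and Lin28b persist for a time in the early neural tube.

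The sequences that bear on these genes are given first. They were matched by symbol to RefSeq promoters, defined on GRCm38 and placed on NCBIM37 by exact match. A total of 8 members matched, with 11 promoters. Sall4 and Dppa4 were not matched. Each printed stretch is the 250 bases before a RefSeq start of transcription, read 5′ to 3′ on the strand of the gene. The RefSeq start used for Lin28b lies inside the longer span that the NCBIM37 annotation gives this gene. The Nanog promoter is shown because it held the site bound jointly by OCT4 and SOX2, in capitals, and the Pou5f1 promoter because that gene had the highest level. The Tdgf1 and Lin28b promoters are shown because these genes had the lowest ratios of HTL treatment to control. Their capitals mark a GC box in Pou5f1 and Tdgf1 and an E-box in Lin28b. The GC box of Tdgf1 is on the opposite strand and so reads CCGCCC.
Nanog, chr6:122657257-122657506, plus strand: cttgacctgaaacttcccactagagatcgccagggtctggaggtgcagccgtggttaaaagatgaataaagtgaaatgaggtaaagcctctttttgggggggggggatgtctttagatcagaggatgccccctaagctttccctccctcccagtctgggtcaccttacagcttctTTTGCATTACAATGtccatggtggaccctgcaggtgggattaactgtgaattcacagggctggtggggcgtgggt
Pou5f1, chr17:35642727-35642976, plus strand: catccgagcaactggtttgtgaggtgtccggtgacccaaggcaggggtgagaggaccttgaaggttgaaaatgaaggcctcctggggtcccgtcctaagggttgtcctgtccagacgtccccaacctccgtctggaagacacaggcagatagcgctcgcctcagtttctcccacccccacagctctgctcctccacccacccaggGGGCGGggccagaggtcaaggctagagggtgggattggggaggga
Tdgf1, chr9:110848663-110848912, minus strand: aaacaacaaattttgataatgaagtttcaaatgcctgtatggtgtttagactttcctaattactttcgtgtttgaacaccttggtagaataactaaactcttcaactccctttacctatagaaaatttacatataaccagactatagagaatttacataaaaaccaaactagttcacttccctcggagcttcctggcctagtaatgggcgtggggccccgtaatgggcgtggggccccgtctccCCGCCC
Lin28b, chr10:45190008-45190257, minus strand: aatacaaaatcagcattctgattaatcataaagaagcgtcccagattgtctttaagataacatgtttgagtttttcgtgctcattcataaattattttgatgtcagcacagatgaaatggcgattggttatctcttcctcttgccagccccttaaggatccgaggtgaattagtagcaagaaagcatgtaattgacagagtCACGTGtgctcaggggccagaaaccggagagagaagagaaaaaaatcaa

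Motifs were searched on both strands in 32851 RefSeq promoter windows of 300 bases, from 250 bases before the start to 50 after it. The OCT-SOX composite, which is the octamer core TTTGCAT followed after 1 base by the SOX core ACAATG, was found in 2 windows, 0.00609% of all. Both were windows of Nanog, around 2 listed starts, and both held the same element, at position -75 of the first start and -151 of the other. The composite was searched in 1 exact form, that of this Nanog element, so its rarity follows in part from the choice of letters. Other forms of the site were not searched. The octamer core by itself, which the composite contains, was held by 4.63% of all windows and by no member promoter outside Nanog. The E-box CACGTG, held by 7.15% of windows, was in the Lin28b promoter at -49. The GC box GGGCGG, held by 35.7% of windows, was in 5 of the 11 member promoters, those of Utf1, Fgf4, Tdgf1, Lin28a and one of Pou5f1. The TATA box TATAAA, held by 13.6% of windows, was in 0 of them. Such matches describe these letters in these windows only.

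The let-7 microRNAs are shown because both Lin28 mRNAs carry sites for them. Among mature mouse microRNAs named let-7 or miR-98, RefSeq lists 10 with the seed GAGGUAG, of which let-7a is printed with its seed in capitals. MicroRNAs of other names were not searched for this seed. In the sites, capitals mark the seed match.
mmu-let-7a-5p: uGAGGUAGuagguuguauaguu
Lin28a, chr4:133561104-133561125, minus strand: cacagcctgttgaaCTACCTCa
Lin28a, chr4:133560466-133560487, minus strand: agatcgccacaaacCTACCTCa
Lin28b, chr10:45100828-45100849, minus strand: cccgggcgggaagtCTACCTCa
Lin28b, chr10:45098454-45098475, minus strand: atacttgttagtaaCTACCTCt
The 3′ UTR of Lin28a held 2 such matches and that of Lin28b held 4. Among 3′ UTRs within 20% of the same length, 15.1% held at least 1 match for Lin28a and 25.1% for Lin28b. Sall4, Esrrb and Fgf4 held 1 each, where 11.9%, 14.7% and 14.2% of 3′ UTRs of like length held at least 1. The remaining 5 members, Pou5f1, Nanog, Utf1, Tdgf1 and Dppa4, held 0, where such shares were 0.43% to 8.35%. MicroRNAs themselves were not analysed here.

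The table gave estimated reads per gene and FPKM, the fragments scaled to transcript length and library size, which allows levels to be compared between genes. After rounding, the control library held 10350665 reads and the HTL treatment library 9102076. Tests covered the 13442 genes whose reads summed to 10 or more over the pair of libraries, of which 378 passed as higher after HTL and 1072 as lower. A difference passed when the log2 ratio was 1 or more in size and the exact test gave an adjusted p of at most 0.001, after the cutoffs of the study. Over all genes tested the log2 ratio had a median of -0.14. Other scalings of the libraries moved that median by 0.093 to 0.13, and the split became 552 higher and 800 lower under TMM.

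The levels of the 10 genes in control NE4C spanned from 0.64 FPKM for Esrrb to 1870.45 FPKM for Pou5f1, a ratio of 2923. Pou5f1 stood at rank 32 of all genes by FPKM. Lin28a (219 FPKM), Tdgf1 (197.09 FPKM) and Utf1 (148.22 FPKM) followed, each above at least 97.2% of genes in the table. Lin28b (28.01 FPKM), Nanog (23.77 FPKM) and Sall4 (17.83 FPKM) lay about an order of magnitude lower. Fgf4 (1.08 FPKM), Dppa4 (1.01 FPKM) and Esrrb (0.64 FPKM) were near the bottom, with 34, 16 and 28 reads. Neighbours in this order had separate 95% Poisson counting intervals except Fgf4, Dppa4 and Esrrb, whose order cannot be told from these counts.

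The order was different in HTL-treated NE4C. Pou5f1 (2114.41 FPKM) stayed first, at rank 40 of all genes. Utf1 (132.25 FPKM) came next, above Lin28a (104.16 FPKM) and Tdgf1 (57.33 FPKM). Sall4 (17.60 FPKM) and Nanog (14.75 FPKM) had counting intervals that overlapped, and Lin28b (11.59 FPKM) was below both. Esrrb (1.39 FPKM), Dppa4 (0.98 FPKM) and Fgf4 (0.65 FPKM) were again last, with overlapping intervals between neighbours. The summed level of the 10 genes was 2507 FPKM in control and 2455 FPKM after HTL, while the sum without Pou5f1 was 636.6 and 340.7 FPKM. Pou5f1 thus made up 74.6% of the summed level in control and 86.1% after HTL.

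**Figure D1:**
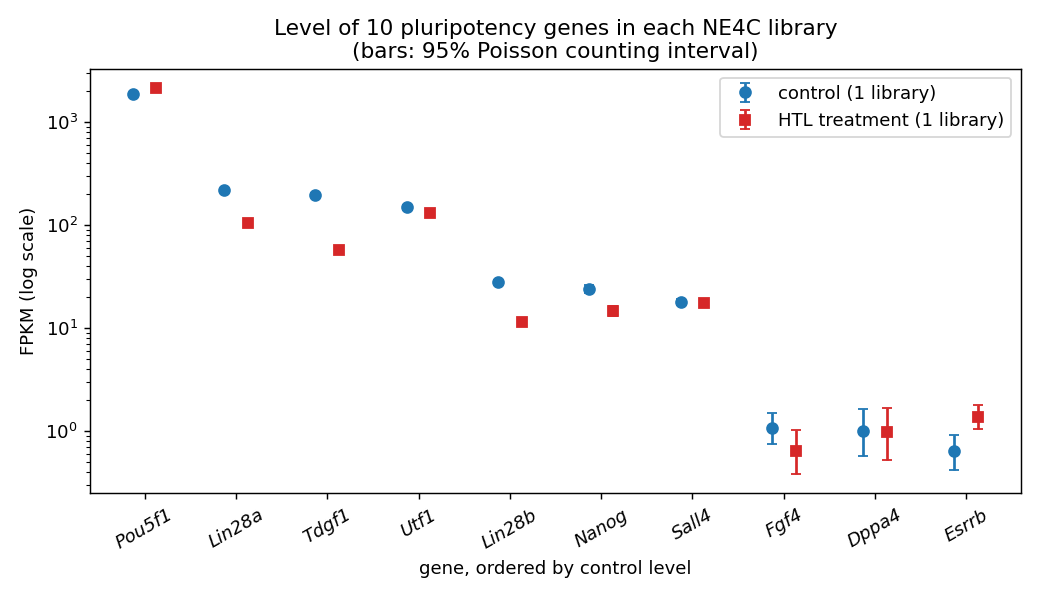
FPKM on a log axis for each of the 10 genes in the control library (blue circles) and the HTL treatment library (red squares), with 95% Poisson counting intervals as bars. Pou5f1 lies highest, at 1870.45 and 2114.41 FPKM, and the largest gap between the libraries is that of Tdgf1, from 197.09 to 57.33 FPKM.

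The differences are given by role, each with the 95% Clopper-Pearson interval of the log2 ratio of HTL treatment to control. In all, 3 of the 10 genes passed as lower and 0 as higher, against 7.98% and 2.81% of all genes tested. Those that passed were both RNA-binding proteins and 1 of the 2 signals. Of the 6 transcription factors and chromatin proteins 0 passed, against 10.8% of all genes in either direction, so that this count says little. Under the 3 other scalings Lin28a did not pass and the transcription factor Esrrb did. The roles were not compared by a test. The median log2 ratio of the 10 was -0.42, and 8 were below 0, as were 7893 of the 13442 genes tested. Only 6 of the 10 were below the median of all genes, and Sall4 and Dppa4 turned above 0 under TMM. In bulk RNA, fewer cells that express a gene and less RNA per cell cannot be told apart.

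Tdgf1 (chr9:110842114-110848662, minus strand, NCBIM37) had the lowest ratio of the group. It had 3968 reads in control and 1017 after HTL, or 197.09 and 57.33 FPKM. The HTL-treated library thus held 29.2% of the control level, 3.43-fold lower, with a log2 ratio of -1.78 (-1.88 to -1.68). The p-value was below the smallest number the computation holds, and 3.31% of genes tested had a lower ratio. Tdgf1 passed under each of the 3 other scalings, at -1.68 to -1.65.

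Fgf4, the other signal (chr7:152047291-152051148, plus strand), had 34 reads in control and 18 after HTL. Its log2 ratio was -0.72 (-1.64 to 0.13), an interval that includes 0, and the exact test gave an adjusted p of 0.146.

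Lin28b and Lin28a, the RNA-binding pair, were both lower after HTL. Lin28b (chr10:45096426-45206201, minus strand) had 1588.05 estimated reads in control and 578.95 after HTL, or 28.01 and 11.59 FPKM. Its level was 2.41-fold lower, with a log2 ratio of -1.27 (-1.41 to -1.13) and an exact adjusted p of 4.01e-80. Lin28a (chr4:133559245-133574756, minus strand) had 7943 and 3329 reads, or 219 and 104.16 FPKM. Its level was 2.10-fold lower, with a log2 ratio of -1.07 (-1.13 to -1.01) and an exact adjusted p of 1.6e-303. The interval of Lin28b lay just below that of Lin28a without overlap, and the difference between the 2 ratios was not tested. Lin28a had 7.82 times the FPKM of Lin28b in control and 8.99 times after HTL.

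The call on Lin28a rests on the scaling of the libraries. Scaled by TMM or by the median of ratios, its log2 ratio was -0.94, and scaled by the upper quartile -0.98, so that it missed the size cutoff each time, with exact adjusted p-values of 1.48e-232, 9.56e-234 and 1.47e-251. Lin28b passed under all 3, at -1.14 to -1.18. Ratios were also lower for longer transcripts across the table, and relative to the median gene of the same length class (10 classes of transcript length) Lin28a stood at -0.90 and Lin28b at -0.99, both short of the cutoff. Tdgf1 stood at -1.73. The part of length in these differences was not tested. An exon of Gm13061 overlaps Lin28a on the opposite strand, and the use of strand in counting is not given in the sources used here, so reads of these genes cannot be told apart.

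**Figure D2:**
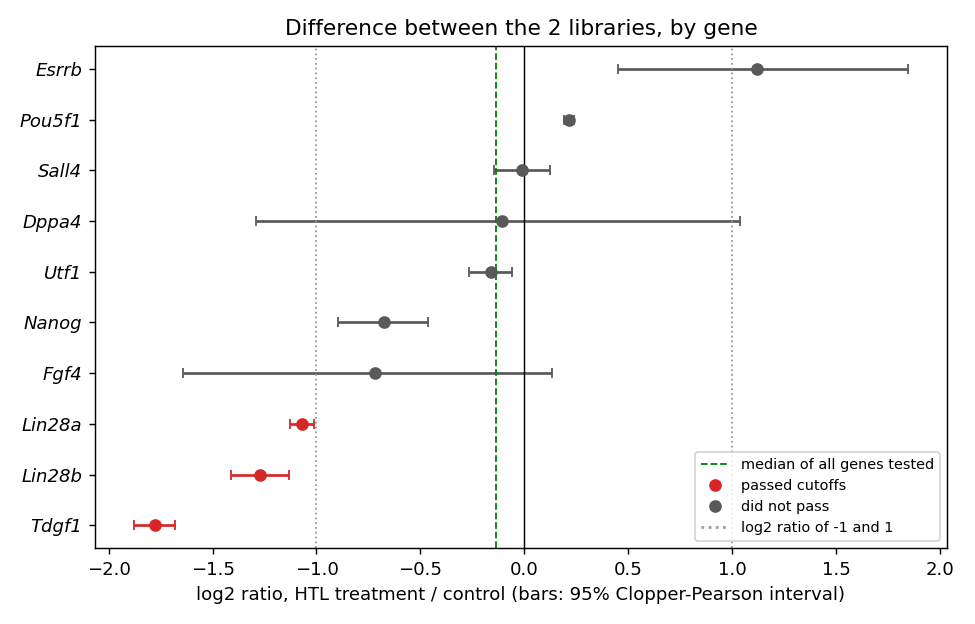
Log2 ratio of HTL treatment to control for each gene with its 95% Clopper-Pearson interval, counting error only. Red points passed the cutoffs (Tdgf1, Lin28b and Lin28a), grey points did not, dotted lines mark -1 and 1, and the dashed line is the median of all genes tested, -0.14.

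Among the transcription factors and chromatin proteins, Pou5f1 (chr17:35642982-35647721, plus strand) had 25076.88 estimated reads in control and 25570 after HTL, or 1870.45 and 2114.41 FPKM. It took 0.242% of all control reads and 0.281% of those after HTL. The log2 ratio was 0.21 (0.19 to 0.24), with an exact adjusted p of 1.05e-60, so the libraries differed beyond counting error by far less than the cutoff. Its control value was fractional, as were the values of Nanog and Lin28b in both libraries.

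Nanog (chr6:122657507-122664651, plus strand) had 499.94 estimated reads in control and 275.35 after HTL, or 23.77 and 14.75 FPKM. The log2 ratio was -0.68 (-0.89 to -0.46) and the exact adjusted p was 1.06e-09. It differed beyond counting error but short of the cutoff on size. The FPKM of Pou5f1 was 78.7 times that of Nanog in control and 143 times after HTL.

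Sall4 (chr2:168573832-168593443, minus strand), a zinc finger protein that recruits the NuRD repressor complex, had 949 and 828 reads, or 17.83 and 17.60 FPKM. Its log2 ratio was -0.011 (-0.15 to 0.12), with an exact adjusted p of 0.926. The sign is not settled, since the ratio was 0.12 under TMM and 0.27 relative to genes of like length. An exon of Gm14261 overlaps Sall4 on the opposite strand.

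Utf1 (chr7:147129688-147131011, plus strand), a chromatin protein of undifferentiated cells, had 1754 and 1379 reads, or 148.22 and 132.25 FPKM. Its log2 ratio of -0.16 (-0.26 to -0.059) lay next to the median of all genes, though relative to genes of like length it was -0.30, and the exact adjusted p was 0.00424. Dppa4 (chr16:48283848-48294405, plus strand), a nuclear protein expressed in pluripotent cells, had 16 and 13 reads, and its log2 ratio of -0.11 (-1.29 to 1.03) was too imprecise to place, with a sign that turned above 0 when scaled by TMM or by ratios' median.

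Esrrb (chr12:87702067-87862578, plus strand), an orphan nuclear receptor of naive embryonic stem cells, was the only member besides Pou5f1 with a ratio above 0 when libraries were scaled by their totals. It had 28 reads in control and 54 after HTL, or 0.64 and 1.39 FPKM. The log2 ratio was 1.12 (0.45 to 1.85), past the cutoff on size, while the exact adjusted p of 0.00141 missed the cutoff of 0.001. The ratio of FPKM + 1 was 0.54 on the log2 scale, below the cutoff on size. Esrrb passed under TMM (1.25), the median of ratios (1.24) and the upper quartile (1.21), with adjusted p-values of 3.66e-04, 3.69e-04 and 5.74e-04. Under those scalings the count was therefore 2 lower and 1 higher in place of 3 lower, against 5.95% of genes lower and 4.11% higher under TMM. With the size cutoff alone, Esrrb passed as higher and the same 3 genes as lower, against 4.72% of genes higher and 12.2% lower, or 17.0% in either direction. With the adjusted p alone, 5 passed, Pou5f1 higher and Nanog, Lin28a, Lin28b and Tdgf1 lower, against 14.5% of genes higher and 24.1% lower.

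**Figure D3:**
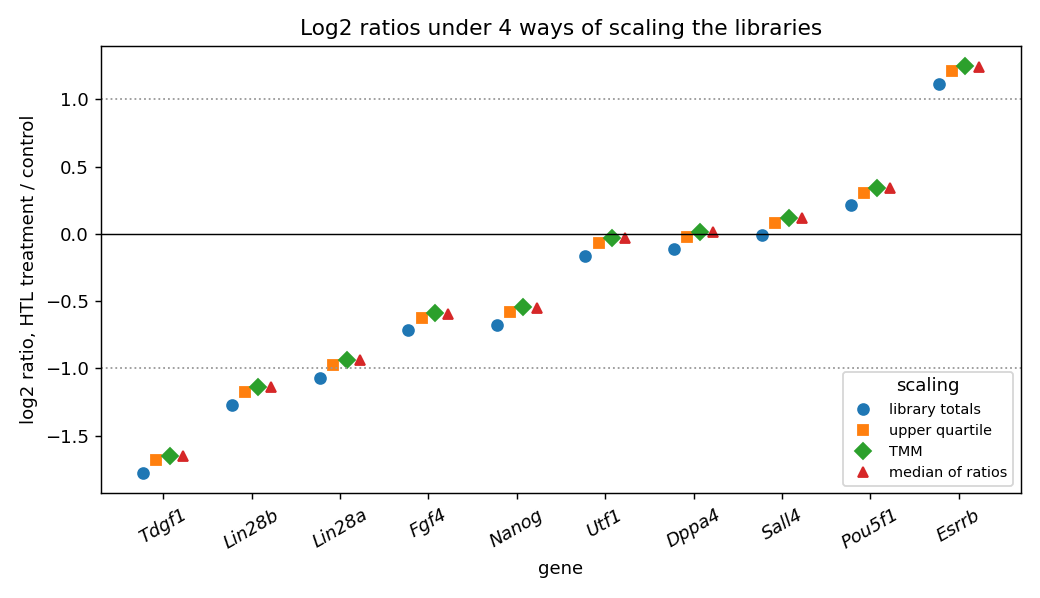
Log2 ratio of HTL treatment to control for each gene under 4 ways of scaling the libraries: totals, upper quartile, TMM and median of ratios. Other scalings move each point up by about 0.1, which takes Lin28a from -1.07 to between -0.98 and -0.94 and leaves Tdgf1 and Lin28b below -1.

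How far biological spread would matter was examined with edgeR's exact test at assumed coefficients of variation. At 0.1 the same 3 genes passed, against 8.38% of all genes. At 0.2, 0 of the 10 passed, against 0.893% of all genes, so that a count of 0 says little about the members. The lowest adjusted p-values were 0.0022 for Tdgf1, 0.053 for Lin28b and 0.124 for Lin28a. The true spread between cultures cannot be estimated from 1 library each.

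**Figure D4:**
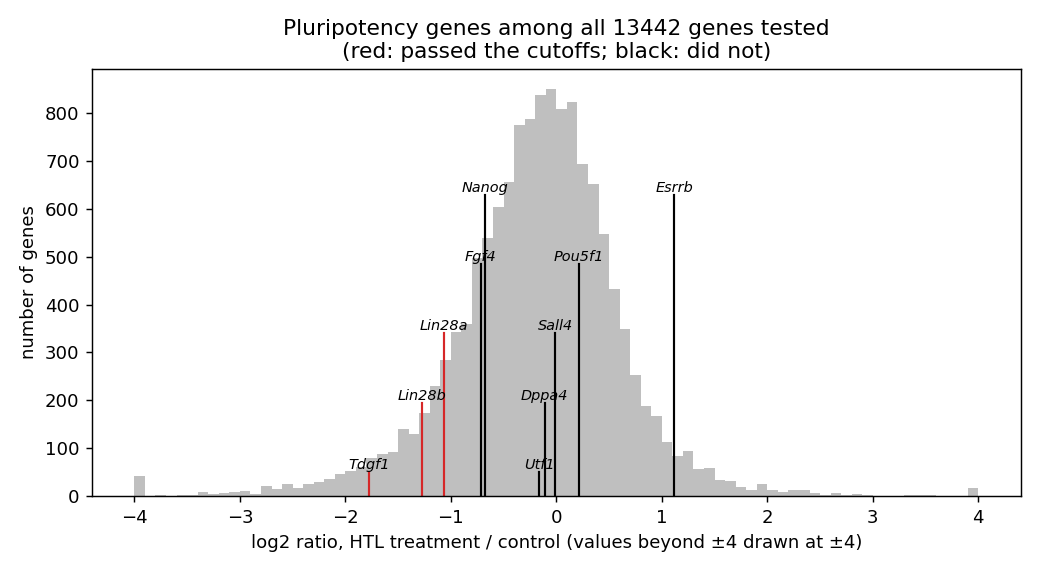
Histogram of the log2 ratio of HTL treatment to control over the 13442 genes tested, in bins of 0.1, with the 10 genes marked (red, passed; black, did not pass). Tdgf1, Lin28b and Lin28a lie in the lower tail, Esrrb in the upper tail, and Pou5f1, Sall4, Dppa4 and Utf1 near the centre.

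Other genes of the pluripotency network passed in both directions, but those higher were lost with a log2 cutoff of 2, with FPKM + 1 and at an assumed coefficient of variation of 0.1, which left 3 lower and 0 higher. Of 26 genes listed, 23 were in the table (Zfp42, Tbx3 and Tcl1 were not) and 19 were tested. A total of 3 passed as higher and 4 as lower, against 2.81% and 7.98% of all genes. The median log2 ratio was -0.39, but -0.66 where a mean of 50 or more reads was required and -0.18 with no filter on low counts. Those higher were all of low level. Klf4, a naive pluripotency factor, had 19 reads in control and 51 after HTL, with a log2 ratio of 1.58 (0.82 to 2.45). Its relative Klf5 had 20 and 48 reads (1.42), and Tfcp2l1, another naive factor, had 36 and 66 reads after rounding (1.05).

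Those lower were Foxd3, Sox2, Klf2 and Nr5a2. Foxd3, a repressor of early lineage genes, had 813 reads in control and 172 after HTL after rounding, or 33.03 and 7.93 FPKM, with a log2 ratio of -2.05 (-2.30 to -1.82). Sox2, the partner of OCT4 and also a neural stem cell factor, had 34.74 and 12.57 FPKM. Klf2 had 21 and 0 reads, at least 6.16-fold lower against a floor of 3 reads. Nr5a2 had 14 and 0 reads, at least 4.10-fold lower, and its exact adjusted p rose from 4.65e-04 to 0.00123 under TMM, which missed the cutoff. A mean of at least 50 reads left 2 lower and 1 higher, so most of these calls are of scarce genes.

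The genes around Lin28 and let-7 had ratios of smaller size. Of 15 listed, 15 were tested and 0 passed both cutoffs, against 10.8% of all genes. A total of 13 had ratios below 0, as did 7893 of the 13442 genes tested, and the median was -0.40. Relative to genes of like length the median was -0.15. With the adjusted p alone, 11 passed as lower and 0 as higher, against 24.1% and 14.5% of all genes tested. Igf2bp2, a let-7 target that binds mRNA, had 1516 and 750 reads (-0.83), and its relative Igf2bp1 had 7956 and 4496 reads (-0.64). Zcchc11, the enzyme that adds uridines to let-7 precursors held by LIN28A, had 1742 and 919 reads (-0.74). These genes were named after their values were seen.

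The pathway of NODAL, which Cripto serves, had log2 ratios on both sides of 0, from -0.89 to 0.68. Of 16 genes, 14 were tested, 0 passed both cutoffs in either direction, against 10.8% of all genes, and the median log2 ratio was -0.058, above 0 under the other scalings. With the adjusted p alone, 4 passed as higher and 4 as lower, against 14.5% and 24.1% of all genes. The ligand Nodal had 1393 and 782 reads (-0.65), its inhibitor Lefty1 had 1786 and 1050 (-0.58), and Foxh1, a DNA-binding partner of SMAD proteins, had 970 and 1152 (0.43). These were also named after their values were seen.

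FGF ligands, receptors and the ERK cascade had 15 of 18 genes tested and 1 passed, against 10.8% of all genes. It was Fgf5, a marker of primed epiblast, with 39 and 10 reads after rounding (-1.73). It missed the p cutoff under the other scalings. The SALL family and NuRD subunits had 15 of 15 tested and 1 passed, against the same share. It was Sall2, a relative of Sall4, with 2066 and 557 reads, or 39.91 and 12.35 FPKM (-1.70). The medians of these lists were 0.028 and -0.029, and the latter was above 0 under the other scalings.

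**Figure D5:**
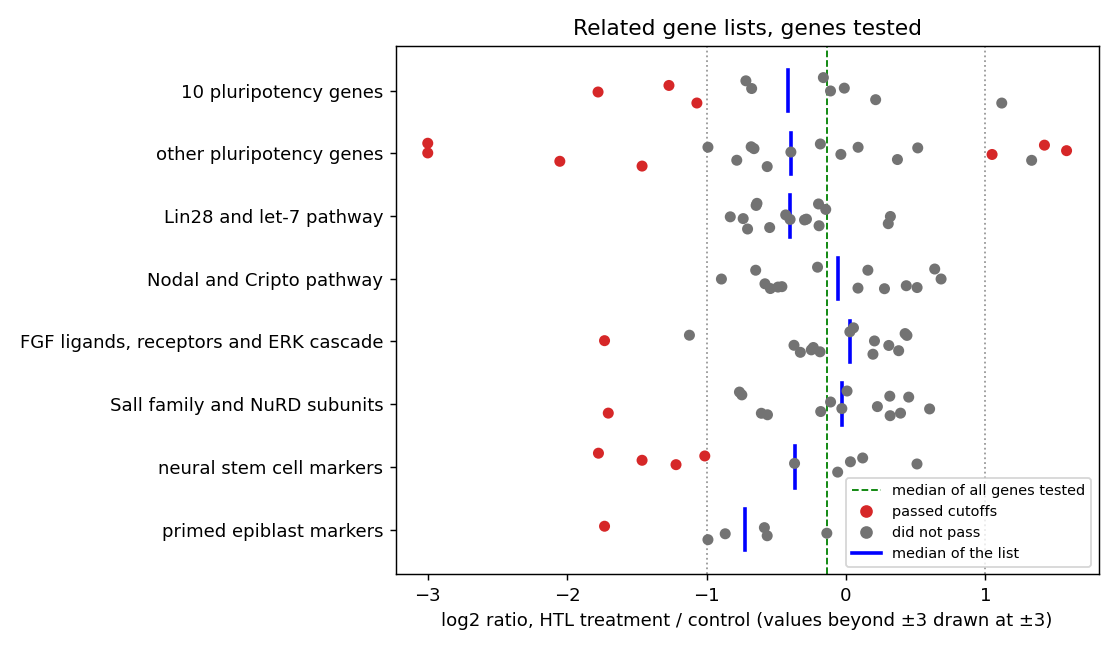
Log2 ratio of HTL treatment to control for each gene tested in the group of 10 and in 7 related lists, with blue bars for the median of a list, red for genes that passed and grey for those that did not. The dashed line is the median of all genes tested, -0.14, and values beyond 3 in size are drawn at 3.

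The labelled cell type was set against 11 markers of neural stem cells, whose levels were mixed and do not settle it. Nes (nestin) was at 25.14 FPKM in control, Vim (vimentin) at 78.54, Msi1 at 38.68, Sox2 at 34.74, Sox3 at 20.75, Cdh2 at 16.37 and Prom1 at 11.90. Pax6 (1.76 FPKM) and Sox1 (1.14 FPKM) were low, while Fabp7 had 2 reads in each library and Hes5 had 1 and 0. The level of Pou5f1 was above that of each of these markers. The summed level of the markers was 229.4 FPKM in control and 157.3 FPKM after HTL.

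Some of these markers were lower alongside the 3 pluripotency genes. Of the 9 tested, 4 passed as lower and 0 as higher, against 7.98% and 2.81% of all genes. Sox1 had 48 reads in control and 12 after HTL (-1.78), Sox2 had 894 and 285 (-1.46), Sox3 had 448 and 169 (-1.22) and Vim had 1487 and 648 (-1.01). Vim missed the cutoff under each other scaling. Nes had 1617 and 1365 reads (-0.059), Pax6 69 and 66 (0.12), Prom1 443 and 555 (0.51), Msi1 617 and 555 (0.033) and Cdh2 831 and 566 (-0.37). Their part in the differences of the pluripotency genes was not tested.

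Markers of other early cell types were also examined. Their counts stand against 7.98% of all genes lower and 2.81% higher. Primitive endoderm markers summed to 6.95 FPKM in control and 7.64 after HTL, with 4 tested and 1 past the cutoffs, Gata4, which was higher (27 and 75 reads, 1.64). Trophoblast markers summed to 21.8 and 15.2 FPKM, with 4 of 5 tested and all 4 past the cutoffs, Tfap2c (40 and 108 reads, 1.61) and Gata3 (72 and 147, 1.21) higher, and Eomes (413 and 92 after rounding, -1.98) and Elf5 (163 and 63, -1.18) lower. Mesoderm markers summed to 9.70 and 5.02 FPKM, with 3 tested and 1 past the cutoffs, T (brachyury), which was lower (188 and 80 reads, -1.04), but missed the cutoff under each other scaling. Germ cell markers summed to 1.27 and 1.42 FPKM, with 2 of 6 tested and 0 past the cutoffs, and Ddx4 had 1 read in control and 0 after HTL. Primed epiblast markers summed to 196.2 and 146.4 FPKM, with Fgf5 as the only one of 6 past the cutoffs and a median log2 ratio of -0.73. Their part in the differences of the pluripotency genes was not tested.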

How the data were processed

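Samples were grouped by title, which gave 1 control and 1 HTL treatment library of total RNA from NE4C. Per the labels, RNA was extracted with Trizol, libraries were prepared by TruSeq (Illumina) and BGISEQ protocols, and build mm9 is listed with no role. Per the study's methods, the authors counted matched reads and normalized them to RPKM with a program spelled RESM, probably RSEM. The table names its normalized values FPKM. The mapper, versions, annotation and use of strand are not given in the sources used here. The deposited counts are not normalized, and are called estimated counts because some are fractional. The deposited FPKM was normalized by the authors for library size and length of the transcript, and its lowest value is 0.01. The authors' deposited log2 ratio, p-value and FDR between the libraries were not used.

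Estimated counts were rounded, and a gene was tested if its reads summed to at least 10 (13442 were, 3361 were not). The two-sided exact conditional binomial test set each gene against the totals of the libraries, and p-values were adjusted over all genes tested by the Benjamini-Hochberg method. For log2 ratios, 0.5 read, scaled to the totals, was added. Reads carried no molecular identifiers and are not independent molecules, so that intervals, floors and tests take in counting error alone, and a test between 2 libraries says nothing of the spread between cultures. Neither DESeq2 nor the quasi-likelihood test of edgeR can be fitted to unreplicated data. edgeR 4.0.16, DESeq2 1.42.0 (R 4.3.3) and scipy 1.17.1 were used.

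The members, the other lists and the cutoffs were chosen with earlier results of these data known. All members were named, and, from each other list, up to 3 genes with the largest called rise and up to 3 with the largest called fall, plus every neural stem cell marker, markers at 0 reads and the neighbours of called members. Sox2 was named as a neural marker. A further 6 genes of the Lin28 and Nodal lists were named after their values were seen. The alternatives were scaling by TMM, upper quartile or median of ratios, other filters (at least 1 read, or a mean of at least 50), an addition of 5 reads, FPKM + 1 ratios, different cutoffs, comparison with genes of like length and assumed coefficients of variation. Gene positions are from the NCBIM37 annotation, and promoter and microRNA sequences from RefSeq. The 3′ UTRs are from the GENCODE transcripts of the NCBIM37 annotation, with the longest protein-coding transcript that lists a 3′ UTR taken for each gene.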

Additional observations from a re-analysis of the deposited data

How the results depend on the processing

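All 14 alternatives were planned. The count of members that passed, 3 in the report, was 0 with a log2 cutoff of 2 and at assumed coefficients of variation of 0.2 and 0.4 (Tdgf1 -1.78, Lin28b -1.27, Lin28a -1.07), 1 relative to genes of like length (Lin28b -0.99, Lin28a -0.90) and 5 with the adjusted p alone (Nanog -0.68 and Pou5f1 0.21 added). Lin28a missed the cutoff with upper quartile (-0.98), TMM (-0.94) and median of ratios (-0.94) scaling, where Esrrb passed (1.21, 1.25 and 1.24); with fold alone Esrrb passed at 1.12. The median of the members was -0.68 with a mean of at least 50 reads and -0.25 with FPKM + 1. All genes that passed, 1450 in the report, numbered 287 with a log2 cutoff of 2, 2280 with fold alone, 5195 with the adjusted p alone, 816 with FPKM + 1, and 120 and 6 at coefficients of variation of 0.2 and 0.4.

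Among the other lists, the FGF, mesoderm and primed epiblast lists, at 1 each, came to 0 under the 3 other scalings, with a log2 cutoff of 2, with FPKM + 1 and at each assumed coefficient of variation. The FGF and primed epiblast lists were also at 0 with a mean of at least 50 reads, and the mesoderm list relative to genes of like length. Fold alone gave 2 for the FGF and mesoderm lists. The other pluripotency genes, 7 in the report, numbered 3 with a log2 cutoff of 2, with FPKM + 1 and at a coefficient of variation of 0.1 (all lower), 3 with a mean of at least 50 reads (2 lower, 1 higher), then 1 at 0.2 and 0 at 0.4. The SALL and NuRD, neural, endoderm and trophoblast lists were at 0 with a log2 cutoff of 2 and at coefficients of variation of 0.2 and 0.4, and with FPKM + 1 the neural list had 2, the trophoblast list 2 and the endoderm list 0. With the adjusted p alone, which 24.1% of all genes passed as lower and 14.5% as higher, the FGF list had 7 (3 lower, 4 higher), the Lin28 list 11 (all lower), the Nodal list 8 (4 and 4), the SALL and NuRD list 10 (5 and 5), the other pluripotency genes 12 (9 lower, 3 higher) and the primed epiblast list 5 (all lower). The cause of these changes was not tested. Depth limits Fgf4, Dppa4 and Esrrb, each with fewer than 55 reads in a library. No paired analysis was possible because control and HTL treatment were each sequenced as 1 library; leaving out a library was not possible either.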

Other observations

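The genes next to the 3 members that were lower did not pass the cutoffs where they were tested. Since 10.8% of all genes tested passed, so few neighbours say little. Beside Tdgf1, Als2cl had 129.93 estimated reads in control and 84.72 after HTL (log2 ratio -0.43), and Lrrc2 had 91.58 and 66.78 (-0.27). Beside Lin28b, Bves had 8 and 7 reads (-0.0067) and Hace1 had 182 and 142 (-0.17). Beside Lin28a, Dhdds had 220 and 130 reads (-0.57), and Gm13060 was not tested. Dppa2, which lies 16.2 kb from Dppa4 on the same chromosome, was about as scarce as Dppa4, with 21 and 18 reads. Fgf3 and Fgf15 flank Fgf4, and like Dppa2 were named after their values were seen. Fgf3 had 0 reads in control and 1 after HTL, and Fgf15 had 110 and 85 (-0.19).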
